A study of Mus musculus with 18 samples.

Results

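The replication-dependent histone genes were taken as the rows of the deposited table whose symbol starts with Hist1h, Hist2h, Hist3h or Hist4h, which gave 68 of 24062 genes. By symbol, 6 of them belong to the linker histone class H1, 18 to H2A, 19 to H2B, 12 to H3 and 13 to H4. In mm10, 54 lie on chromosome 13, 10 on chromosome 3, 3 on chromosome 11 and 1 on chromosome 6. Hist3h2bb-ps, counted with H2B, is named as a pseudogene.

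The study sequenced RNA of epithelial intestinal tumours from male C57BL/6 mice, all carrying the Min allele of Apc in 1 copy (ApcMin/+), a mutation that cuts short a brake on the Wnt pathway and leads to intestinal adenomas. The hom group had no working copy of Macrod2 (Macrod2-/-, 6 large intestinal tumours), the het group had lost 1 copy (Macrod2-/+, 5 large intestinal tumours and het 4 from the small intestine) and the wt group kept both (Macrod2+/+, 6 large intestinal tumours). The wt mice were therefore wild type for Macrod2 only, and tumours were compared with tumours, with no normal tissue. Neither the age of the mice nor the deleted stretch of Macrod2 is in the labels. The labels number the mice within each genotype, so that p-values measure the spread between tumours of different mice.

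Replication-dependent histone genes supply the histones that package newly copied DNA, and their messengers accumulate in S phase and are degraded when it ends. Most of these messengers carry no polyA tail: they end just after a conserved stem-loop, which is bound by the stem-loop binding protein Slbp and marks the site of cleavage. Several of the genes can also give polyadenylated messengers, mainly in cells that have left the cell cycle. A library prepared by selection of polyA tails captures them poorly, whereas a total RNA library can hold both forms. The extraction was of total RNA and the kit was made for total RNA, yet the molecule label names polyA RNA, so the form of RNA that entered the libraries is not settled by the labels. The levels were for this reason set against 3 abundant RNAs without a polyA tail: Rn45s, the precursor of ribosomal RNA, Rmrp, the RNA of the endonuclease RNase MRP, and Rpph1, the RNA of RNase P.

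A search of the GENCODE M21 transcript models for the histone stem-loop found it in 46 of the 68 histone genes (67.6%), against 59 of all 55341 genes of that transcript file (0.107%). The following stretches of 30 bases from mm10 are shown because they belong to genes with high read counts in their class (Hist1h1c, Hist3h2a, Hist1h2bg, Hist1h3g, Hist1h4i) or to genes that differed most between tumours (Hist1h1e, Hist1h3f, Hist1h4c, Hist1h4d, Hist1h4j). Capitals mark the stem-loop, and all are read on the strand of the gene.
Hist1h1c (chr13:23739506-23739535, + strand): ccaaaaGGCTCTTTTCAGAGCCaccactcc
Hist1h1e (chr13:23621774-23621803, - strand): cccaaaGGCTCTTTTCAGAGCCacccacaa
Hist3h2a (chr11:58955166-58955195, + strand): accaaaGGCTCTTTTCAGAGCCacccacaa
Hist1h2bg (chr13:23571837-23571866, + strand): cccaaaGGCTCTTTTCAGAGCCacccatac
Hist1h3f (chr13:23544926-23544955, + strand): caaaacGGCTCTTTTAAGAGCCacctccat
Hist1h3g (chr13:23535883-23535912, + strand): tttaaaGGCTCTTCTTAGAGCCacccatct
Hist1h4i (chr13:22040958-22040987, - strand): cttaaaGGCCCTTTTTAGGGCCaccacaaa
Hist1h4c (chr13:23698081-23698110, - strand): acaaaaGGCCCTTTTCAGGGCCacccacaa
Hist1h4d (chr13:23581944-23581973, + strand): accaaaGGCCCTTTTCAGGGCCactacctt
Hist1h4j (chr13:21735431-21735460, + strand): cctaaaGGTCCTTTTCAGGACCaccacatc
The H1, H2A and H2B stretches shown share 1 stem-loop, whereas Hist1h3f and Hist1h3g differ from it in the loop and the H4 genes in the stem, Hist1h4i in both. The stem-loop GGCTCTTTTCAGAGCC was that of 3 H1, 10 H2A, 8 H2B and 5 H3 genes, and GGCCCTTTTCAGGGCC that of 7 H4 genes. No such sequence was found in the models of Hist1h2bc, the gene with the highest level of all, or of Hist2h2be, which have 1156 and 2620 bases. A model that ends early would also lack it, and some are short, such as that of Hist1h4k with 312 bases. Of the 41 histone genes that could be tested, 10 had the polyadenylation signal AATAAA or ATTAAA in the last 40 bases of a transcript model, Hist1h1c, Hist2h2be, Hist3h2a and Hist1h4i among them.

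Histone genes are packed closely, and many H2A and H2B genes are transcribed away from a shared start region. RefSeq promoters of the GRCm38.p6 assembly, from 250 bases before to 50 after the start, matched 61 of the 68 genes. The shared region of Hist1h2bg and Hist1h2ae is shown as an example of such a pair, and that of Hist1h4d because this gene differed most between tumours. Capitals mark the TATA box TATAAA, the CCAAT box CCAAT and the octamer ATTTGCAT, each searched on both strands (the reverse of CCAAT reads ATTGG), without overlap between them.
Hist1h2bg (chr13:23571150-23571449, + strand): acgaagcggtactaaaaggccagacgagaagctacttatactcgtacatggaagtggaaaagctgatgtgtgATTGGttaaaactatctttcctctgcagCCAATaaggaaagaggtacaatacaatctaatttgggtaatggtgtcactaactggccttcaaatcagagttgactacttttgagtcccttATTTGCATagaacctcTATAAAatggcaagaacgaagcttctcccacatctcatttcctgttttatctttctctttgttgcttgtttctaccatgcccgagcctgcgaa
Hist1h4d (chr13:23581318-23581617, + strand): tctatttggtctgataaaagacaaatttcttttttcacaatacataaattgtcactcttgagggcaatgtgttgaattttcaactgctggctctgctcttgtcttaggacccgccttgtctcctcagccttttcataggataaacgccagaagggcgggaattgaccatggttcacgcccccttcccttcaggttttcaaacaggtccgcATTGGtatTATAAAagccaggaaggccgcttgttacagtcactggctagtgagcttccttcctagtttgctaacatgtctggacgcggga
TATAAA stood in 57.4% of the 61 histone promoters, against 13.6% of all 32851 RefSeq promoters. CCAAT stood in 85.2% of the histone promoters, against 37.4% of all promoters, and in 3 of 12 H4 promoters. ATTTGCAT stood in 21.3% of the histone promoters, against 1.74% of all promoters. It was found in 7 of 17 H2A and 6 of 16 H2B promoters and in 0 of 6 H1, 0 of 10 H3 and 0 of 12 H4 promoters.

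Library totals were 13529204 to 20857918 counts, of which the histone genes together took 3901 to 6084 counts, or 0.0207% to 0.0353%. Levels are counts scaled by library size with TMM factors (CPM), and a count of 0 allows a level of up to 0.141 to 0.278 CPM depending on the library. Such limits and all intervals here cover counting error only. Macrod2 followed the labels, with 0.158 ± 0.147 CPM in hom (SD, n = 6), 2.20 ± 0.727 CPM in het (SD, n = 5) and 3.74 ± 0.580 CPM in wt tumours (SD, n = 6). All 7 epithelial markers were detected, with a sum of 10260 to 17435 CPM over the 17 large intestinal tumours. Wt 1 and wt 2, labelled large intestine, went against that label with 171 and 175 CPM of Gata4, a transcription factor of the small intestine, close to the 164 CPM of the small intestinal tumour het 4 and above the 0.282 to 46.4 CPM of the other 15 tumours. Wt 3 stood apart by its Rn45s share, described below. The tests of the histone genes below are given with all 17 large intestinal tumours, without wt 3, and without wt 1 and wt 2.

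At the level of single genes the histone class was uneven. Per length, in the authors' RPKM (reads per length of the gene and depth of the library), Hist1h2bc was highest with a median of 149 RPKM over the 17 large intestinal tumours, followed by Hist1h1c with 66.9, Hist3h2a with 25.4, Hist1h2bg with 20.9 and Hist1h2bf with 12.0 RPKM. The highest H4 gene was Hist1h4i with 9.60 RPKM, and the highest H3 gene was Hist1h3d with 1.51 RPKM. Hist1h2bc and Hist1h1c together took 39.8% of the summed histone CPM in wt 3, against 60.5% to 71.0% in the 16 other large intestinal tumours.

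A filter on low counts was passed by 41 of the 68 genes, 3 of H1, 9 of H2A, 15 of H2B, 6 of H3 and 8 of H4. Hist1h3f passed only through wt 3, since 40 genes passed without that tumour. Its difference in wt 3 was therefore fixed by the filter, and counts are also given over the 40 other genes. Of the 27 others, 18 had counts and 9 had a count of 0 in all 18 tumours: Hist1h2aa, Hist1h2ao, Hist1h2ap, Hist1h2bq, Hist1h2br, Hist2h2aa1, Hist2h2aa2, Hist2h3c1 and Hist2h3c2. Near-identical copies limit what a count of 0 says. In 8 of these 9 genes over 50% of the stretches of 50 bases also occur in another gene, and in 5 of them over 90% do. For the 59 genes with counts the median share was 44.1%, so the authors' counting could have split or dropped reads of many of them.

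**Figure D1:**
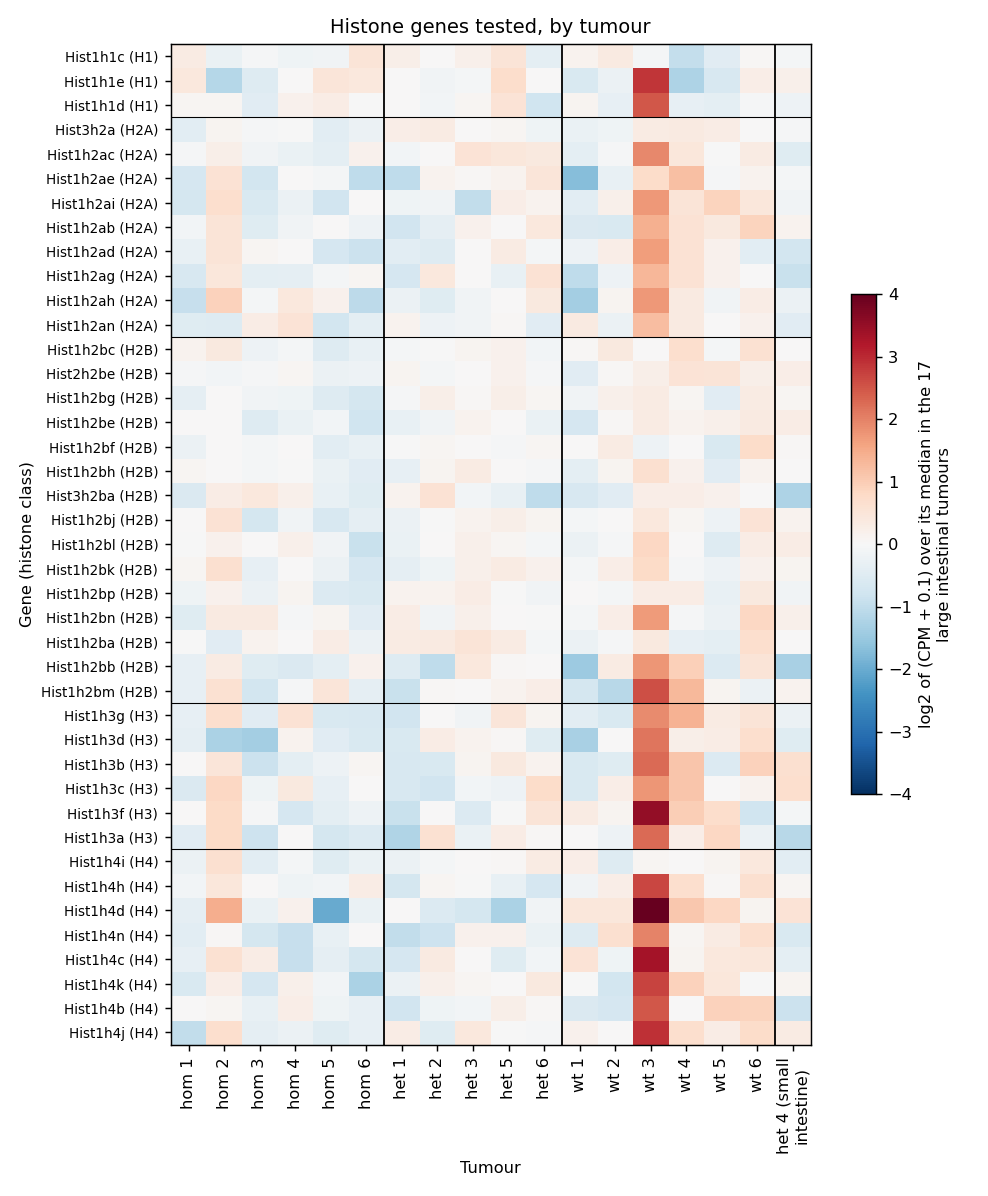
Colour gives, for each of the 41 histone genes tested (rows, by class, highest mean level first) and each tumour (columns, hom, het, wt, then the small intestinal het 4), log2 of (CPM + 0.1) over the gene's median in the 17 large intestinal tumours, on a scale that ends at 4. The column of wt 3 is red for most rows of H1, H2A, H3 and H4, whereas Hist1h2bc and Hist1h1c are near 0 in it.

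Linker histone H1 binds the DNA between nucleosomes and compacts chromatin. Hist1h1c, its highest gene by read count and per length, had 40.7, 46.1 and 69.5 CPM as lowest, median and highest value in hom tumours, 57.5, 48.8, 56.3, 69.6 and 37.5 CPM in the het tumours 1, 2, 3, 5 and 6, and 25.0, 48.2 and 62.8 CPM in wt tumours. The 3 genotypes overlapped, and the lowest tumour was wt 4. Hist1h1e had 0.632, 1.81 and 2.15 CPM in hom tumours, 1.53, 1.36, 1.43, 2.53 and 1.52 CPM in het tumours, and 0.596, 1.13 and 11.7 CPM in wt tumours. Its highest value was that of wt 3, and without it the genotypes overlapped. The GENCODE model of Hist1h1e, with 1930 bases, overlaps that of Hist1h2be, but the authors' length of Hist1h1e is 782 bases. Whether the counted stretch reaches Hist1h2be is not known. Hist1h1d had 1.16, 1.72 and 2.05 CPM in hom tumours, 1.63, 1.51, 1.71, 2.43 and 0.903 CPM in het tumours, and 1.21, 1.43 and 9.53 CPM in wt tumours, again with wt 3 alone at the top. Hist1h1a and Hist1h1b, too low for the test, had 4.72 and 6.48 CPM in wt 3 and no more than 0.298 and 0.596 CPM in the 16 others. Hist1h1t, the testis form, had a count of 0 in wt 3.

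H2A and H2B form dimers on either side of the nucleosome core. The highest H2A gene, Hist3h2a, had 9.47, 11.6 and 13.8 CPM in hom tumours, 15.4, 16.3, 12.8, 13.5 and 11.4 CPM in het tumours, and 10.7, 14.4 and 16.4 CPM in wt tumours. The genotypes overlapped, and wt 3 with 16.1 CPM lay within the range of the others. Hist1h2ae, by contrast a low gene, had 0.454, 0.791 and 1.58 CPM in hom tumours, 0.458, 1.15, 1.05, 1.14 and 1.47 CPM in het tumours, and 0.242, 1.06 and 2.46 CPM in wt tumours, the highest being wt 4 and the lowest wt 1. Hist1h2ab had 0.522, 0.692 and 1.14 CPM in hom tumours, 0.408, 0.574, 0.881, 0.776 and 1.07 CPM in het tumours, and 0.473, 1.12 and 2.22 CPM in wt tumours. Its highest tumour was wt 3, followed by wt 6 with 1.52 CPM.

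H2B held most histone reads. Hist1h2bc had 81.1, 105 and 151 CPM in hom tumours, 111, 114, 124, 131 and 108 CPM in het tumours, and 111, 137 and 184 CPM in wt tumours. The highest tumours were wt 4 and wt 6 and the lowest hom 5, with overlap of all genotypes, and wt 3 with 116 CPM lay next to the median of the 16 others, 117 CPM. Hist2h2be had 9.11, 10.2 and 11.6 CPM in hom tumours, 11.6, 10.3, 10.8, 12.2 and 10.5 CPM in het tumours, and 7.94, 12.9 and 15.8 CPM in wt tumours. Here wt 1 was lowest and wt 4 highest.

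Hist1h2bg had 5.95, 8.15 and 9.74 CPM in hom tumours, 9.48, 11.5, 10.1, 11.4 and 10.3 CPM in het tumours, and 7.15, 10.7 and 12.3 CPM in wt tumours. Hom and het tumours overlapped between 9.48 and 9.74 CPM only, while wt tumours spanned both. Hist1h2be had 3.18, 4.94 and 5.63 CPM in hom tumours, 4.53, 5.01, 6.11, 5.59 and 4.63 CPM in het tumours, and 3.45, 6.27 and 7.11 CPM in wt tumours, with overlap. Hist1h2bf had 3.89, 4.74 and 5.38 CPM in hom tumours, 5.20, 5.53, 5.29, 5.12 and 5.53 CPM in het tumours, and 3.46, 5.34 and 8.86 CPM in wt tumours, of which wt 3 had 4.63. Hist1h2ba, known as a testis form, had 1.14, 1.60 and 1.995 CPM in hom tumours, 2.04, 2.09, 2.31, 2.02 and 1.52 CPM in het tumours, and 1.21, 1.44 and 2.596 CPM in wt tumours. In these 4 genes the ratio of wt 3 to the median of the 16 others was 0.875 to 1.33. Hist1h2bn had 1.08, 1.60 and 2.03 CPM in hom tumours, 1.94, 1.41, 1.82, 1.55 and 1.52 CPM in het tumours, and 1.32, 1.69 and 5.27 CPM in wt tumours. Hist1h2bm had 0.290, 0.478 and 0.885 CPM in hom tumours, 0.255, 0.574, 0.551, 0.621 and 0.677 CPM in het tumours, and 0.203, 0.528 and 3.79 CPM in wt tumours. For both, the highest value was that of wt 3 and the genotypes overlapped.

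H2A and H2B genes that share a start region were compared with each other. By RefSeq promoters 9 such pairs overlapped by at least 100 bases, and both partners passed the filter in 6. In all 6 the H2B gene had the higher median RPKM, by 2.81 to 11.5 times. For Hist1h2bg and Hist1h2ae, whose shared region is printed above, the medians were 20.9 and 1.82 RPKM. In the other tested pairs the H2A gene had the larger share of stretches of 50 bases that also occur in another gene. That share was 85.8% for Hist1h2an and 44.1% for Hist1h2bp, but 43.2% for Hist1h2ae and 49.7% for Hist1h2bg. The part of reads shared by gene copies in these differences was not tested. Of the 3 other pairs, that of Hist1h2ao and Hist1h2bq had a count of 0 in all tumours. In the 6 tested pairs the H2A gene had the larger ratio of wt 3 to the median of the other tumours, for example 3.59 for Hist1h2ad and 0.875 for Hist1h2bf.

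H3 and H4 form the tetramer at the centre of the nucleosome, and all of their tested genes except Hist1h4i had a median under 2 CPM in the 16 tumours other than wt 3. Hist1h3g, the highest H3 gene by read count, had 0.404, 0.490 and 1.14 CPM in hom tumours, 0.357, 0.679, 0.606, 0.983 and 0.733 CPM in het tumours, and 0.405, 0.948 and 2.78 CPM in wt tumours. Hist1h3c had 0.375, 0.564 and 1.14 CPM in hom tumours, 0.357, 0.313, 0.551, 0.517 and 1.07 CPM in het tumours, and 0.364, 0.710 and 2.31 CPM in wt tumours. In both genes the highest tumour was wt 3 and the next wt 4, with 1.94 and 1.41 CPM, and the genotypes overlapped. Hist1h3f had 0.194, 0.325 and 0.696 CPM in hom tumours, 0.153, 0.365, 0.220, 0.362 and 0.564 CPM in het tumours, and 0.169, 0.572 and 5.27 CPM in wt tumours. The 16 tumours other than wt 3 reached 0.819 CPM at most.

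Hist1h4i, the highest H4 gene, had 2.81, 3.33 and 6.20 CPM in hom tumours, 3.31, 3.71, 3.96, 4.09 and 5.02 CPM in het tumours, and 2.70, 4.23 and 5.30 CPM in wt tumours. Its highest tumour was hom 2, and wt 3 with 4.16 CPM lay in the middle. Hist1h4d had 0.0512, 0.405 and 1.58 CPM in hom tumours, 0.509, 0.313, 0.275, 0.155 and 0.451 CPM in het tumours, and 0.564, 0.866 and 11.0 CPM in wt tumours. Wt tumours lay above all het tumours but overlapped with hom tumours, of which hom 2 was highest. Hist1h4h had 1.07, 1.17 and 1.71 CPM in hom tumours, 0.713, 1.31, 1.21, 0.983 and 0.733 CPM in het tumours, and 1.09, 1.73 and 8.33 CPM in wt tumours. Hist1h4c had 0.243, 0.416 and 0.885 CPM in hom tumours, 0.306, 0.731, 0.551, 0.362 and 0.508 CPM in het tumours, and 0.473, 0.780 and 6.48 CPM in wt tumours. In both, wt 3 was alone at the top and the other wt tumours lay in or next to the range of the carriers.

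Hist1h4j had 0.188, 0.350 and 0.822 CPM in hom tumours, 0.611, 0.313, 0.661, 0.466 and 0.451 CPM in het tumours, and 0.473, 0.712 and 4.26 CPM in wt tumours. Hist1h4n had 0.437, 0.686 and 0.949 CPM in hom tumours, 0.408, 0.470, 1.05, 1.03 and 0.733 CPM in het tumours, and 0.606, 1.32 and 3.89 CPM in wt tumours. Hist1h4k had 0.202, 0.469 and 0.759 CPM in hom tumours, 0.509, 0.731, 0.661, 0.621 and 0.846 CPM in het tumours, and 0.338, 0.750 and 4.63 CPM in wt tumours. Wt 3 was the highest tumour for all 3 of these genes, and the genotypes overlapped.

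Summed by class, the same tumour stood out in H3 and H4 but hardly in H2B. H4 genes summed to 60.0 CPM in wt 3, against 7.18 to 14.9 CPM in the 16 others from the large intestine, which is 6.65 times their median. H3 genes summed to 31.5 CPM in wt 3, against 3.16 to 9.45 CPM in the others, 6.69 times the median. H2A genes summed to 41.5 CPM in wt 3, against 14.3 to 28.3 CPM in the others, 2.08 times the median. H1 genes summed to 78.5 CPM in wt 3, against 27.8 to 75.4 CPM in the others, 1.48 times the median. H2B genes summed to 196 CPM in wt 3, within the 124 to 246 CPM of the others, 1.18 times the median. On the additive scale the excess of wt 3 over the median of the others was 51.0 CPM for H4, 29.9 for H2B, 26.8 for H3, 25.3 for H1 and 21.5 for H2A.

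**Figure D2:**
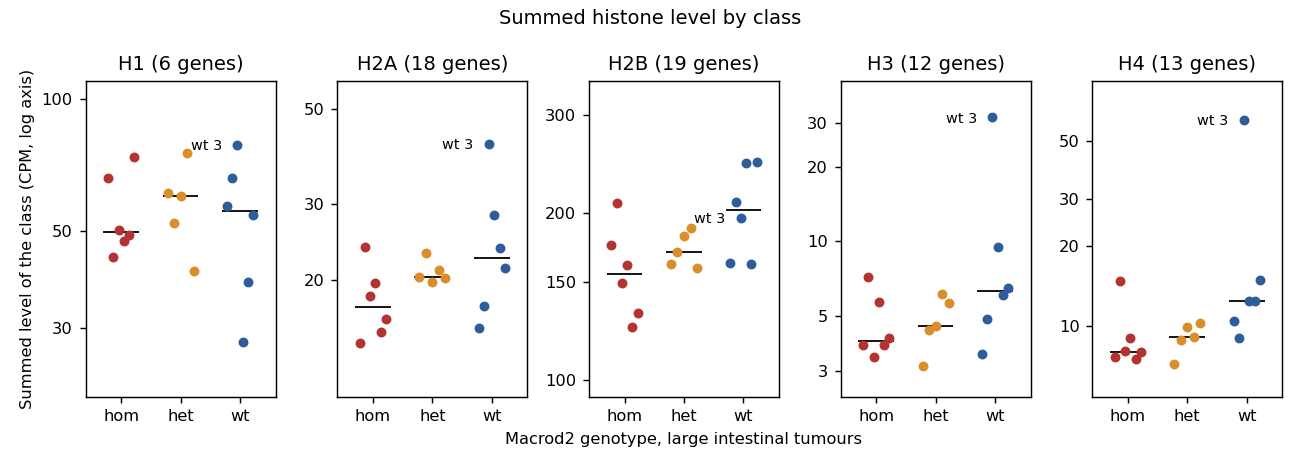
Each point is the summed level of a histone class in 1 large intestinal tumour (CPM, log axis), by Macrod2 genotype (hom, het, wt), and bars mark the group medians. Wt 3, with 31.5 CPM of H3 and 60.0 CPM of H4, lies far above all other tumours in these classes and within their range in H2B.

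Gene by gene, 29 of the 41 tested histone genes were higher in wt 3 than in each of the 17 other tumours, against 3.65% of all 14271 genes tested. None of the 41 was lower in wt 3 than in each other tumour, against 3.99% of all genes. With CPM that were not scaled by TMM factors, which moves the median of all genes in wt 3 to 0.754 times that of the others, 27 of the 41 were highest in wt 3. The level in wt 3 exceeded 2 times the median of the 16 others for 25 of the 41 genes (61.0%), against 1.98% of all genes, and 25 were found with either scaling. The median ratio was 3.59 for the histone genes and 0.9997 for all genes. Without Hist1h3f, 28 of 40 genes were highest in wt 3, 24 exceeded 2 times the median and the median ratio was 3.51. These are descriptions of 1 library, with no test, and wt 3 was known from earlier results of these data to have high histone levels. The next tumour was wt 4, in which 9 of the 41 genes (22%) exceeded 2 times the median, against 5.32% of all genes. In wt 4, 4 of the 41 genes were above all other tumours, a share below the 20.8% of all genes, and in wt 6 another 4 were, against 3.09% of all genes.

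The ratio was larger for genes that were low elsewhere, a split by the same median that the ratio divides by. The 12 histone genes with a median of 2 CPM or more in the 16 others, among them Hist1h2bc, Hist1h1c, Hist3h2a and Hist1h4i, had ratios of 0.875 to 1.83, none over 2. The 29 genes with a lower median had ratios of 1.26 to 22.9, and 25 of them exceeded 2. The largest ratio was that of Hist1h4d, 22.9, with 11.0 CPM in wt 3 and a median of 0.480 CPM elsewhere, followed by Hist1h3f with 14.5 and Hist1h4c with 12.2. On the additive scale, the median difference of wt 3 from the others was 1.24 CPM for the 12 genes and 2.59 CPM for the 29. By gene, Hist1h4d gained 10.5 CPM, Hist1h1e 10.2, Hist1h1d 7.91, Hist1h4h 7.11, Hist1h4c 5.95 and Hist1h3f 4.91 CPM. Hist1h1c, with the same stem-loop as Hist1h1e, was 3.45 CPM lower in wt 3 than the median of the others.

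Sorted by transcript ends, the 32 tested genes with a stem-loop in a model had a median ratio of 4.06 in wt 3, and the 9 without had 2.77. The 10 genes with a polyadenylation signal in the last 40 bases had a median ratio of 1.26, and 2 of them, Hist1h4h and Hist1h4j, exceeded 2. The 31 genes without that signal had a median ratio of 4.004, and 23 of them exceeded 2. The models of Hist1h2ah, Hist1h2ai, Hist1h2an, Hist1h2ba, Hist1h2bl, Hist1h2bn and Hist1h4k have 312 to 405 bases, against authors' lengths of 409 to 522. These genes are among the 9 and among the 31. For them a model that ends early cannot be told apart from a transcript without these features. Level and transcript end went together, since 6 of the 10 genes with the signal had a median of 2 CPM or more, and the part of each was not tested. Of the 18 genes with counts that failed the filter, 14 were higher in wt 3 than in each other tumour, with 1.48 to 6.48 CPM there, while these 18 genes reached no more than 1.04 CPM in the 16 others. The other 4 were Hist1h1t, Hist1h4m, Hist2h2ab and Hist3h2bb-ps.

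**Figure D3:**
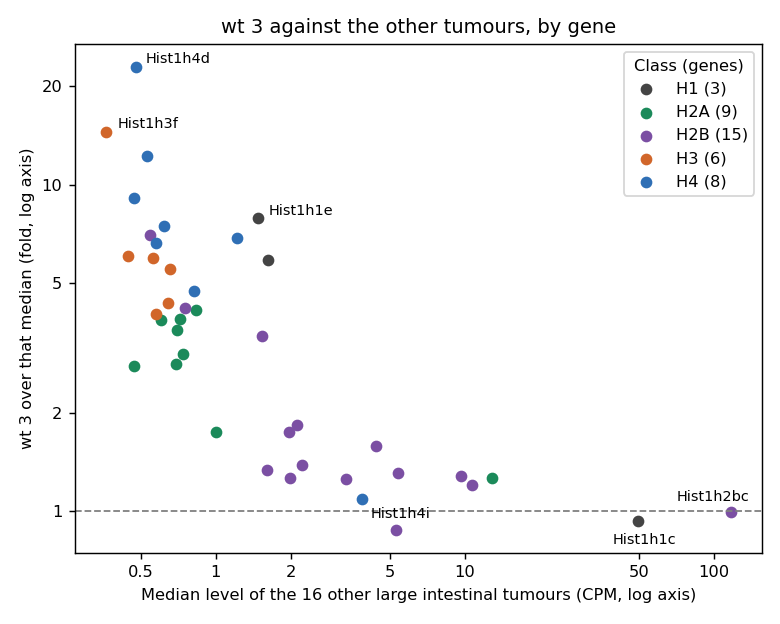
Each point is a tested histone gene, with its median level in the 16 other large intestinal tumours (CPM, log axis) on the x axis and the level in wt 3 divided by that median (log axis) on the y axis. Genes under 2 CPM reach ratios up to 22.9 (Hist1h4d), while the 12 genes at 2 CPM or more stay between 0.875 and 1.83.

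Wt 3 was also the tumour with the highest levels of the 3 RNAs without a polyA tail. Rn45s took 26.99% of its counts (95% Wilson interval 26.97% to 27.01%), against 0.118% to 0.725% in the 16 other large intestinal tumours and 0.435% in het 4. Rmrp had 263 CPM in wt 3 (2843 counts), against 0.252 to 4.29 CPM in the 16 others. Rpph1 had 290.3 CPM in wt 3 (3138 counts), against 0.202 to 3.23 CPM in the others. In CPM, Rn45s, Rmrp and Rpph1 thus stood at 114, 201 and 229 times the median of the other tumours, more than any tested histone gene. As a share of unscaled counts, Rn45s stood at 84.2 times the median. Among other small RNAs of the nucleus, the 9 Scarna genes summed to 16.4 times the median of the others in wt 3, the 5 Rnu genes to 4.46 times and the 74 Snord genes to 2.80 times, each above the range of the others. The 36 Snora genes summed to 1.60 times the median, within the range of the others.

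Genes that work with histones had ratios near 1 in wt 3. Of the 17 genes for histone gene transcription and messenger processing, none exceeded 2 times the median in wt 3, and their ratios ran from 0.854 to 1.37. Slbp had 52.5 CPM in wt 3, against 33.6 to 79.6 CPM in the 16 others, and Npat, the coactivator of histone genes, had 34.1 CPM in wt 3, against 19.1 to 39.1 CPM in the others. The 11 replacement histones, only some of which are made throughout the cell cycle, had ratios of 0.822 to 1.14. H3f3b, for H3.3, had 1016 CPM in wt 3, against 797 to 1470 CPM in the others, H2afz 102 CPM against 74.8 to 239 CPM, H2afx 77.8 CPM against 38.4 to 155 CPM and H1f0 318 CPM against 285 to 438 CPM. The 45 genes of DNA replication and S phase had a median ratio of 0.909 and a range of 0.701 to 1.49. Of the 20 histone chaperones none exceeded 2, with ratios of 0.863 to 1.47, and 2 were highest in wt 3, against 3.65% of all genes. Of the processing, replacement histone and S phase genes, 0 were highest in wt 3. Among cell markers, the erythroid list was higher in wt 3 than in the 16 others, with a sum of 51.5 CPM against 4.84 to 35.2 CPM and 3 of its 6 genes, Hba-a2, Hbb-bs and Hbb-bt, at a count of 0 there. The part of erythroid cells in the histone levels was not tested. B cell markers, which could come with lymphoid tissue, summed to 1.57 CPM in wt 3, within the 0.713 to 7.81 CPM of the others.

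The levels of Rn45s, Rmrp and Rpph1 were compared between genotypes to see whether they followed Macrod2. Rmrp had 0.252, 1.39 and 4.29 CPM in hom tumours, 1.07, 2.14, 2.09, 2.48 and 2.37 CPM in het tumours, and 0.545, 1.04 and 263 CPM in wt tumours. Rpph1 had 0.202, 1.19 and 3.23 CPM in hom tumours, 1.27, 0.992, 2.20, 1.91 and 1.86 CPM in het tumours, and 0.743, 1.42 and 290.3 CPM in wt tumours. Rn45s took 0.118%, 0.288% and 0.458% of counts in hom tumours, 0.330%, 0.282%, 0.358%, 0.386% and 0.468% in het tumours, and 0.186%, 0.330% and 26.99% in wt tumours. The ranges of the genotypes overlapped once wt 3 was set aside. In exact two-sided permutation tests on log2(CPM + 1), none of the 9 differences passed, with adjusted p values of 0.986 or more, where the smallest p possible is 0.00216 (n = 5 or 6). None passed without wt 3 either, with exact permutation tests giving adjusted p values of 0.214 or more, nor without wt 1 and wt 2, with 0.411 or more. The difference of hom from wt tumours was -1.42 for Rn45s, -0.80 for Rmrp and -1.16 for Rpph1 with all tumours, and -2.27, -1.52 and -1.93 without wt 1 and wt 2. Without wt 3 the differences of Rmrp and Rpph1 turned to 0.38 and 0.01.

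The genotypes were then compared gene by gene, in edgeR's quasi-likelihood test over the 17 large intestinal tumours with adjustment over all 14271 genes. In hom against wt tumours, 0 of the 41 histone genes passed an adjusted p of 0.05, against 0.00701% of all genes, which is Macrod2 alone. At an unadjusted p under 0.05 there were 15 histone genes and 2277 of all genes (16%), and DESeq2 and limma-voom also called 0. The estimates were below 0 for 40 of 41 histone genes, with a median log2 fold change of -0.62, against -0.03 over all genes. Without Hist1h3f, 14 of 40 had an unadjusted p under 0.05 and the median was -0.61. By class the medians were -0.70 for H1, -0.60 for H2A, -0.34 for H2B, -1.08 for H3 and -1.32 for H4. The H3 median includes Hist1h3f, which stood at -1.79. The smallest p values belonged to Hist1h4j (-1.62, SE 0.53), Hist1h4n (-1.19, SE 0.40) and Hist1h4c (-1.72, SE 0.60), with adjusted p values of 0.258, 0.258 and 0.261. Hist1h1c was the only histone gene with an estimate above 0 (0.14, SE 0.21, adjusted p = 0.746).

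The size of these estimates rested on wt 3. Without it 0 of 40 histone genes passed, against 0.007% of all genes, and 2 had an unadjusted p under 0.05, against 20.4% of all genes. The median was -0.28, with 33 of 40 estimates below 0, and the median over all genes was -0.000387. The class medians then were 0.26 for H1, -0.27 for H2A, -0.24 for H2B, -0.45 for H3 and -0.54 for H4, so that H1 turned sign. Within H1, Hist1h1e stood at -0.83 over 17 tumours and at 0.50 without wt 3, and Hist1h1d at -0.70 and at 0.26. Hist1h4j stood at -0.72, Hist1h4n at -0.70 and Hist1h4c at -0.51. Hist1h2bc, the highest gene, was hardly moved, with -0.40 (SE 0.16, adjusted p = 0.275) over 17 tumours and -0.42 (SE 0.16, adjusted p = 0.178) without wt 3.

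Without wt 1 and wt 2 the class medians were lower. Of 43 histone genes that then passed the filter 0 were called, against 0.00695% of all genes, and 26 had an unadjusted p under 0.05 (24 of the 40), against 24.6% of all genes. The median was -0.89, against 0.0061 over all genes, and by class -0.97 for H1, -0.84 for H2A, -0.39 for H2B, -1.42 for H3 and -1.69 for H4. Hist1h4j stood at -1.98 (SE 0.53), Hist1h4n at -1.39 (SE 0.41) and Hist1h4c at -2.09 (SE 0.62), with edgeR adjusted p values of 0.122, 0.124 and 0.125.

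Other lists had estimates of the same sign in this comparison. The 45 genes of the S phase list all had estimates below 0 in hom against wt tumours, with a median of -0.39 and 0 past the adjusted threshold. An unadjusted p under 0.05 was reached by 10 of them, against 16% of all genes. Without wt 3 the median was -0.41 with 13 such genes, against 20.4% of all genes, and without wt 1 and wt 2 it was -0.49 with 23, against 24.6% of all genes. With 17 tumours Pold3, a subunit of DNA polymerase delta, stood at -0.69, and Cdc6, which helps load the replicative helicase, at -0.80. Among genes for histone messenger processing, Slbp had -0.41 (SE 0.17, adjusted p = 0.282). Mast cell markers, 5 of 5 tested, were also below 0 with a median of -3.88. An unadjusted p under 0.05 was reached by 5 with 17 tumours, against 16% of all genes, and 1 of 5 without wt 1 and wt 2, against 24.6%. They summed to 17.4 to 216 CPM in hom, 31.0 to 1556 CPM in het and 27.3 to 7631 CPM in wt tumours. In bulk tissue fewer cells of a type and less RNA per cell cannot be told apart, and the part of these lists in the histone estimates was not tested.

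In het against wt tumours 0 of 41 histone genes passed, against 0.0% of all genes. There were 8 histone genes and 407 of all genes (2.85%) at an unadjusted p under 0.05, and DESeq2 and limma-voom called 0. Hist1h3f, tested only through wt 3, was among the 8. The estimates were below 0 for 38 of 41 genes with a median of -0.57, against -0.03 over all genes. Hist1h4d stood at -2.84 (SE 0.85), Hist1h4h at -1.42 (SE 0.46) and Hist1h4c at -1.71 (SE 0.64), each with an adjusted p of 0.999. Without wt 3, 0 passed and 2 had an unadjusted p under 0.05, against 5.73% of all genes. The median then was -0.16, with 28 of 40 below 0, and these 3 genes stood at -1.29, -0.66 and -0.51. Without wt 1 and wt 2, 0 of 43 passed, against 0.0% of all genes, and 18 had an unadjusted p under 0.05, against 7.33% of all genes. These 43 hold genes outside the 40, and wt 3 weighs more in the smaller wt group. The median then was -0.87 and the 3 genes stood at -3.28, -1.74 and -2.07. The highest estimates with the smallest p were those of Hist1h2ba (0.23), Hist1h1c (0.21) and Hist1h2bg (0.01). Both comparisons share the 6 wt tumours, wt 3 among them.

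In hom against het tumours 0 of 41 histone genes passed, against 0.00701% of all genes, and DESeq2 and limma-voom called 0. At an unadjusted p under 0.05 there were 1 histone gene, Hist1h2bg (-0.41, SE 0.16), and 286 of all genes (2.0%). The median was -0.08, against -0.01 over all genes, with 31 of 41 estimates below 0. Without wt 3, 0 of 40 passed, against 0.007% of all genes, and 1 had an unadjusted p under 0.05, against 2.01% of all genes. Leaving out wt 1 and wt 2, the numbers were 0 of 43, against 0.00695% of all genes, and 1, against 2.88%. Hist3h2a followed with -0.27 (SE 0.15) and Hist1h2ba with -0.33, while Hist1h4h (0.38), Hist1h4d (0.70) and Hist1h3c (0.21) had the smallest p above 0. With carriers, the mean of hom and het, against wt tumours, 0 of 41 passed, against 0.00701% of all genes. There 16 histone genes and 11.2% of all genes had an unadjusted p under 0.05, and the median was -0.59. Hist1h3f, tested only through wt 3, was among the 16. Without wt 3, 0 of 40 passed, against 0.007% of all genes, 2 had an unadjusted p under 0.05, against 16.6% of all genes, and the median was -0.23. Without wt 1 and wt 2, 0 of 43 passed, against 0.0% of all genes, 26 had an unadjusted p under 0.05, against 19.7% of all genes, and the median was -0.87. Here too the 43 hold genes outside the 40, and wt 3 weighs more among the wt tumours.

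As a description, all histone genes together summed to 245 ± 33.7 CPM in hom (SD, n = 6), 264 ± 24.1 CPM in het (SD, n = 5) and 312 ± 62.1 CPM in wt tumours (SD, n = 6), or 293 ± 45.6 CPM in wt tumours without wt 3. H4 genes summed to 9.13 ± 2.80 CPM in hom, 9.04 ± 1.19 CPM in het and 19.9 ± 19.8 CPM in wt tumours, or 11.8 ± 2.24 CPM without wt 3. The difference in mean log2(sum + 1) of all genes was -0.34 for hom against wt tumours, -0.41 without wt 1 and wt 2 and -0.25 without wt 3, beside a larger within-group SD of 0.286.

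The covariation of each histone gene with the RNAs without a polyA tail was tested within genotypes, by adding log2(Rmrp CPM + Rpph1 CPM + 1) to the model. This value was 9.12 in wt 3 and 0.54 to 2.88 in the 16 others. The coefficients over 17 tumours and their SEs therefore rest largely on 1 library, and no histone gene passed this fit without wt 3. With all 17 tumours, 6 of the 40 histone genes that pass the filter without wt 3 rose with the covariate and 0 fell, against 0.0841% of all genes. They were Hist1h4c (0.43 log2 units per log2 unit, SE 0.06, edgeR adjusted p = 1.96e-03), Hist1h4h (0.30), Hist1h4j (0.36), Hist1h1d (0.33), Hist1h4k (0.37) and Hist1h4d (0.50). The whole table held 12 genes that passed. Among them was Hist1h3f, tested only because of its level in wt 3, so that its call is not counted, and the other 5 were Rmrp, Rpph1, Rn45s, Lars2 and Mir6236, the first pair being the covariate itself. Of the 40 histone genes, 27 had an unadjusted p under 0.05, against 3.14% of all genes. Of their estimates 37 were above 0, with a median of 0.20, against -0.01 over all genes. The 3 below 0 were Hist1h2bf, Hist1h2bc and Hist1h1c, each at -0.03 or -0.04.

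With Rn45s as the covariate, log2(percentage of counts + 0.01), 6 of the same 40 histone genes rose, against 0.0981% of all genes, with Hist1h4c (0.47, adjusted p = 0.0122), Hist1h4k (0.43, adjusted p = 0.0153) and Hist1h4j (0.42, adjusted p = 0.0153) at the smallest p. They were the same 6 genes as above, and these coefficients also rest largely on wt 3. The table held 14 genes that passed, again with Hist1h3f, which is not counted for the same reason, and with Snord22 and Malat1 added. In this fit 26 of the 40 had an unadjusted p under 0.05, against 3.57% of all genes. With 17 tumours no gene of histone processing, of the chaperones, of the replacement histones or of S phase passed in either fit. Without wt 3, genes of these lists did pass with Rn45s, where 17.1% of all genes passed. Asf1a, Gins4, H2afj, H2afz, Lsm10, Rfc3 and Rpa3 rose (edgeR adjusted p values of 0.0193 to 0.0408), and Pou2f1 fell (adjusted p = 0.0409).

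**Figure D4:**
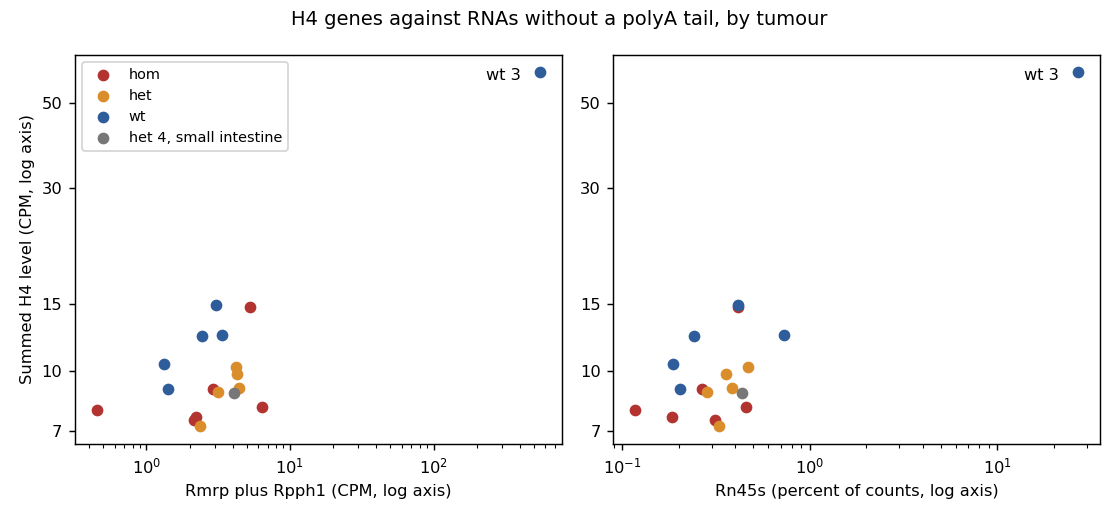
Each point is a tumour, with the summed level of the 13 H4 genes (CPM, log axis) against Rmrp plus Rpph1 (CPM, log axis, left) and the Rn45s share of counts (percent, log axis, right). Wt 3 lies alone at 60.0 CPM of H4 and 26.99% Rn45s, and the other tumours form a cluster from 7.18 to 14.9 CPM.

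Since 1 tumour lay so far from the others, no correlation over all tumours is given, and the fits were repeated without it. Without wt 3, 0 of 40 histone genes passed with Rmrp and Rpph1, against 0.105% of all genes, of which 0.028% rose and 0.077% fell. At an unadjusted p under 0.05 there were 7 histone genes and 3564 of all genes (24.9%), and 36 of 40 estimates were above 0, with a median of 0.24, against -0.0037 over all genes. Hist1h4c stood at 0.50 (SE 0.25, adjusted p = 0.227) and Hist1h4k at 0.62 (SE 0.28, adjusted p = 0.192), against SEs of 0.06 for both genes with wt 3, whereas Hist1h4h stood at 0.10 and Hist1h1d at -0.13. Without wt 1 and wt 2 instead, 1 of 43 histone genes, Hist1h4c (0.45, SE 0.06, adjusted p = 0.0135), passed with Rmrp and Rpph1, against 0.0417% of all genes. With Rn45s 0 of 43 passed, against 0.0347% of all genes. Unadjusted, 24 of the 40 had a p under 0.05 with Rmrp and Rpph1, against 3.53% of all genes, and 25 of the 40 with Rn45s, against 2.39%.

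With Rn45s and without wt 3, 3 of 40 histone genes passed, against 17.1% of all genes, of which 9.53% rose and 7.59% fell, and 7 had an unadjusted p under 0.05, against 37.5%. Hist1h1c fell with Rn45s (-0.46, SE 0.12, adjusted p = 0.0280), while Hist1h2ae (0.89, SE 0.25, adjusted p = 0.0315) and Hist1h2ah (0.83, SE 0.26, adjusted p = 0.0405) rose. None of these 3 was among the genes called with wt 3. The histone genes thus passed no more often than all genes did.

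**Figure D5:**
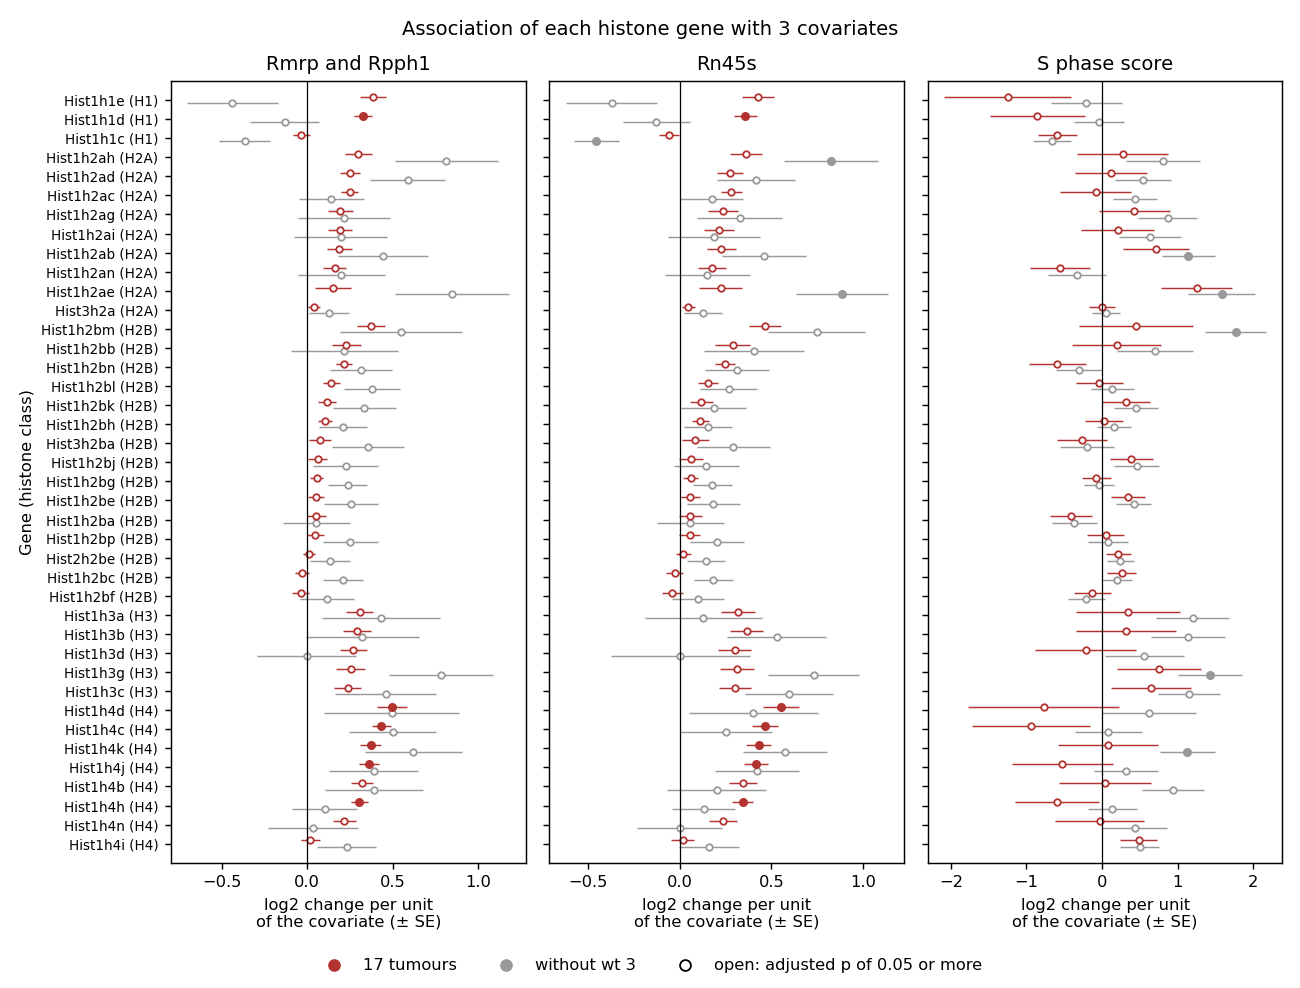
Points give the estimate and its SE for each of the 40 histone genes that pass the filter without wt 3 (rows, by class) per unit of Rmrp and Rpph1 (left), Rn45s (middle) and the S phase score (right), in red for 17 tumours and in grey without wt 3, filled where the adjusted p is under 0.05. The 6 filled red points of the left and of the middle panel are 5 H4 genes and Hist1h1d, all at positive estimates, and in grey 5 genes are filled for the S phase score.

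Since these messengers belong to S phase, the histone genes were last set against a score of S phase, the mean log2 CPM of 45 genes of DNA replication that include no histone. The score was highest in wt 4, at 0.66 above the mean, and in wt 5, at 0.62, lowest in hom 3, at -0.74, and -0.13 in wt 3. With 17 tumours 0 of 41 histone genes passed, against 17.7% of all genes, with 2 at an unadjusted p under 0.05, against 32.7% of all genes. Hist1h2ae was nearest (1.25 log2 units per unit of score, SE 0.47, adjusted p = 0.0743), followed among those above 0 by Hist1h4i (0.49) and Hist1h2ab (0.72). The lowest were Hist1h1c (-0.59, SE 0.25, adjusted p = 0.118), Hist1h2bn (-0.59) and Hist1h1e (-1.25). DESeq2 called 1 histone gene in this fit. Leaving out wt 1 and wt 2, 0 of 43 passed, against 15.2% of all genes, and 1 had an unadjusted p under 0.05, against 30.6%.

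Without wt 3, 5 of 40 histone genes rose with the score and 0 fell, against 11.5% of all genes that rose and 18.2% that changed in either direction. They were Hist1h2bm (1.77, SE 0.41, adjusted p = 8.22e-03), Hist1h2ae (1.58, SE 0.44, adjusted p = 0.0227), Hist1h3g (1.43, SE 0.425, adjusted p = 0.0308), Hist1h2ab (1.14, SE 0.35, adjusted p = 0.0337) and Hist1h4k (1.13, SE 0.36, adjusted p = 0.0426). The median was 0.43 over the histone genes, against -0.01 over all genes, and 11 had an unadjusted p under 0.05, against 33.3% of all genes. The class medians were -0.21 for H1, 0.64 for H2A, 0.16 for H2B, 1.15 for H3 and 0.47 for H4. Hist1h2bc (0.20, SE 0.20) and Hist3h2a (0.05, SE 0.18) did not pass, and Hist1h1c stood at -0.66 (SE 0.26, adjusted p = 0.0850).

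Genes that act on histones were fitted with the same score, with which 12.4% of all genes rose and 5.3% fell over 17 tumours. With 17 tumours 11 of 20 histone chaperones rose with it, led by Asf1b (1.39), which hands H3 and H4 to the replication fork, Chaf1a (1.04), the large subunit of chromatin assembly factor, and Hat1 (0.94), which acetylates new H4. Of the processing genes 5 of 17 rose, led by Slbp (0.83, SE 0.08, adjusted p = 9.98e-06), Eri1 (0.68), an exonuclease that trims the stem-loop end, and Zfp473 (1.28), a zinc finger protein of the processing complex. Of the replacement histones 4 of 11 rose, among them H2afx (1.21, adjusted p = 2.07e-05) and H2afz (0.79, adjusted p = 0.0133), while H3f3b (0.08) and H1f0 (-0.10) did not pass. Smooth muscle markers also moved with the score, 2 of 5 tested genes with 17 tumours, 3 of 5 without wt 3, against 11.5% of all genes that rose, and 1 of 5 without wt 1 and wt 2, against 9.96%, with a sum of 47.2 to 169 CPM in hom, 74.8 to 136 CPM in het and 68.6 to 228 CPM in wt tumours, and their part was not tested. Of the macrophage markers 3 of 6 fell with the score, against 1 of 6 without wt 1 and wt 2, where 5.28% of all genes fell, with sums of 47.4 to 76.9 CPM in hom, 25.3 to 72.9 CPM in het and 27.8 to 73.8 CPM in wt tumours, and their part was not tested either.

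The small intestinal tumour het 4, which entered no test, lay within the range of the large intestinal tumours for Hist1h2bc (118 CPM), Hist1h1c (45.8 CPM) and Hist1h4d (0.791 CPM). Its histone genes took 4497 counts.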

How the data were processed

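RNA of 18 tumours was extracted as total RNA and prepared with a stranded total RNA kit, per the labels' protocols. Reads were trimmed with Trimmomatic, aligned with TopHat to mm10 and counted with featureCounts (Subread 1.4.5-p1), per the submitters' processing notes. For the strand setting and for reads shared by gene copies, nothing was given in the sources used here. The authors deposited a count per gene and tumour, the values tested here, and RPKM per gene and tumour, used here only to compare levels between genes.

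The count table was filtered with filterByExpr, which left 14271 genes, scaled with TMM factors and fitted with edgeR 4.0.16 (robust quasi-likelihood, R 4.3.3) over the 17 large intestinal tumours, with p-values adjusted by Benjamini and Hochberg's method over the whole table and called under 0.05. Covariates were added to genotype 1 at a time. Standard errors are on the log2 scale. The fits were tested on simulated data. Het 4 entered no comparison. Alternatives were DESeq2 1.42.0, limma 3.58.1, other scalings and filters, log2(RPKM + 0.1), fits without single tumours and without wt 1 and wt 2. Those on the scaling of wt 3, and the counts without Hist1h3f, were chosen after seeing the data.

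The genes named were the 6 highest by mean CPM, the highest of each class and the 3 with the smallest p in each direction per comparison. Others were named after their values were seen, where they passed a test or stood out in wt 3. A gene of the S phase list that the rule also names is not reported here. The members and lists were chosen with earlier results of these data known. Wilson intervals and the limit of 3 counts cover counting error only. Of 153 pairs of libraries, the closest differed with a chi-square of 20.3 per degree of freedom, so that none was a repeat. GENCODE M21 (mm10) and RefSeq (GRCm38.p6) gave transcript and promoter sequences.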

Additional observations from a re-analysis of the deposited data

Results flagged for a closer look

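Within each genotype, the highest and the lowest tumour were compared with the others by Dixon's criterion for 31 measures in 93 groups. The criterion marked 21 values, 13 of them in wt 3. Chance marks about 1 in 20 groups where measures are not picked by their values. Many of these measures were picked by their p in these same data or were known to be high in wt 3. The number of marks can therefore not be weighed against that share.

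In wt 3, Hist1h4c had 6.48 CPM, with 0.848 CPM in the next wt tumour, and Hist1h4d had 11.0 CPM, with 1.19 CPM in the next. Hist1h4h had 8.33 CPM (next 2.01), Hist1h4j 4.26 CPM (next 0.846), Hist1h4k 4.63 CPM (next 1.27) and Hist1h4n 3.89 CPM (next 1.52). Hist1h3f had 5.27 CPM (next 0.819) and Hist1h1e 11.7 CPM (next 1.86). The H4 sum was 60.0 CPM (next 14.9) and the H3 sum 31.5 CPM (next 9.45). Rn45s took 27.0% of counts (next 0.725%), Rmrp had 263 CPM (next 1.35) and Rpph1 290.3 CPM (next 2.53).

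In hom 2, marked values stood above those of the other hom tumours in 5 measures. Hist1h4i had 6.20 CPM (next 3.74), Hist1h4j 0.822 CPM (next 0.389), Hist1h4d 1.58 CPM (next 0.583), Hist1h3f 0.696 CPM (next 0.375) and the H4 sum 14.7 CPM (next 8.99). The sum contains the H4 genes named with it. Of the other tumours, het 5 had 2.53 CPM of Hist1h1e (next 1.53). Het 1 was low in Rmrp with 1.07 CPM (next 2.09), and wt 1 was low in Hist1h2be with 3.45 CPM (next 5.74).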

How the results depend on the processing

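The count of histone genes called between genotypes was 0 under every alternative run for each of the 4 comparisons. Counts here include Hist1h3f, which passed the filter only through wt 3. The count of 7 for Rmrp and Rpph1 was 15 with no filter beyond 1 count, 12 without a genotype term, 0 with the replicate block, 1 without wt 1 and wt 2, and 0 to 9 when single tumours were left out (0 without wt 3, 1 without wt 5, 2 without wt 1). The count of 7 for Rn45s was 15, 13, 0 and 0 under the same 4 settings, and 1 to 8 with single tumours left out (1 without wt 1, 3 without wt 3, 3 without wt 5, 4 without wt 2). The count of 0 for the S phase score was 1 with DESeq2, without a genotype term and with the small intestinal tumour, and 0 to 5 with single tumours left out (5 without wt 3). Tumours with equal mouse numbers were not more alike than others, with a median correlation of -0.0253, against 0.00371 for pairs with unlike numbers. Of 16 pairs with the same number 4 correlated above 0.1 (range -0.451 to 0.330), and 1 tumour correlated best with its own number. Still, the replicate block took both counts of 7 to 0, and whether equal numbers share a batch was not tested.

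Estimates that turned sign are given next. With the S phase score as covariate, Hist1h1c stood at -0.0489 in hom against wt and Hist1h2bg at -0.0053 in het against wt tumours. Left-out tumours gave -0.0557 to 0.0881 for Hist1h2bg in het against wt tumours and -0.00344 to 0.575 for Hist1h3c in hom against het tumours. Hist1h2bc stood at 0.0118 with Rn45s and no genotype term. Without wt 1 and wt 2, Hist1h1c stood at 0.0163 with Rmrp and Rpph1 and at 0.00226 with Rn45s. Left-out tumours gave -0.0466 to 0.115 for Hist1h2bf and -0.0401 to 0.207 for Hist1h2bc with Rmrp and Rpph1, and -0.0581 to 0.0993 and -0.0439 to 0.182 with Rn45s, the highest value of each without wt 3. Without wt 3 the differences in log2(CPM + 1) were 0.157 for Rn45s (het against wt), 0.382 and 0.646 for Rmrp (hom and het against wt), and 0.0095 and 0.184 for Rpph1 (hom and het against wt), with ranges over left-out tumours of -1.35 to 0.157, -1.10 to 0.382, -0.837 to 0.646, -1.47 to 0.0095 and -1.29 to 0.184. For Rpph1 in hom against het tumours the range was -0.349 to 0.014. The causes were not tested. Few counts behind most H3 and H4 genes limit their precision.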
